A study of Xenopus tropicalis with 6 samples.

Results

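Genes that specify the neural crest were followed in whole *Xenopus tropicalis* embryos in which the neural splice variant of the SRC kinase, N1-SRC, had been knocked down. The 10 genes were taken by their exact symbols from the gene-level expression table, and all of them were found among its 23634 genes. They are *sox8*, *sox9*, *sox10*, *snai1*, *snai2*, *twist1*, *foxd3*, *tfap2a*, *tfap2b* and *tfap2e*. The 6 samples came from embryos of the Nigerian strain at Stage 16, a mid-neurula stage. Controls were 3 samples of embryos injected with 10 ng of a standard control morpholino, and morphants were 3 samples of sibling embryos injected with 10 ng of antisense morpholinos that block splicing of the *n1-src* microexon. Each replicate number joins a control and a morphant sample, called a replicate set here. Both groups therefore received a morpholino, and no uninjected embryos were among the samples.

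The neural crest is a vertebrate cell population that forms at the edge of the neural plate, leaves it as migrating cells and gives rise to pigment cells, craniofacial skeleton, peripheral neurons and glia. Wnt, FGF and BMP signals first set up a neural plate border, marked by factors such as Pax3 and Msx proteins. Border factors then turn on the specifiers described here, which hold cells in a multipotent crest state and switch on migration and differentiation genes. Most of these factors have other sites of expression in the neurula, among them the epidermis for *tfap2a* and the mesoderm for *snai1* and *twist1*. In RNA from whole embryos, fewer cells of a type and less RNA per cell cannot be told apart.

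Expression is given as TPM, the share of a gene among all transcripts after correction for transcript length, which sums to the same total in every sample. Depth is unknown on this scale, so errors come from the spread between samples or sets, and those from limma also borrow from other genes. The targeted gene, *src*, was at 18.7, 25.8 and 49.2 TPM in the controls of sets 1, 2 and 3, and at 15.6, 17.3 and 34.6 TPM in the morphants. It was lower in the morphant of each set, but the value sums all *src* transcripts and does not isolate *n1-src*. A pair of genes, LOC108645507 and LOC100335111, took 4.89% of all TPM in the morphant of set 1 and between 0.193 and 0.525% in the other samples. In all, 13382 genes reached a mean of 1 TPM in controls or morphants and were tested with limma on log2(TPM + 0.5) with the replicate set as a block. All 10 members passed this filter. Of all genes tested, 786 were called lower and 350 higher in morphants at an adjusted p of at most 0.05, and the median log2 fold change was -0.068. After scaling the samples to a common median the split was 381 lower and 533 higher, and the median log2 fold change was 0.029.

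Of the 10 members, 5 fell in morphants, namely *sox10*, *tfap2e*, *sox8*, *twist1* and *snai2*, and 0 rose (limma, adjusted p of at most 0.05). The share of all tested genes called lower was 5.87%, and the share called higher was 2.62%. At an unadjusted p of at most 0.05, limma gave 7 members lower, as it did 23.4% of all genes tested, and 0 members higher. The log2 fold changes of the members ran from -1.08 for *sox10* to 0.12 for *tfap2a*, with a median of -0.40 against -0.068 for all genes tested. The same 5 members had all 3 morphant samples below all 3 control samples, a pattern found in 11.3% of the genes tested. Expression was lower in the morphant of each of the 3 sets for 8 members, as it was for 38.5% of the genes tested.

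**Figure D1:**
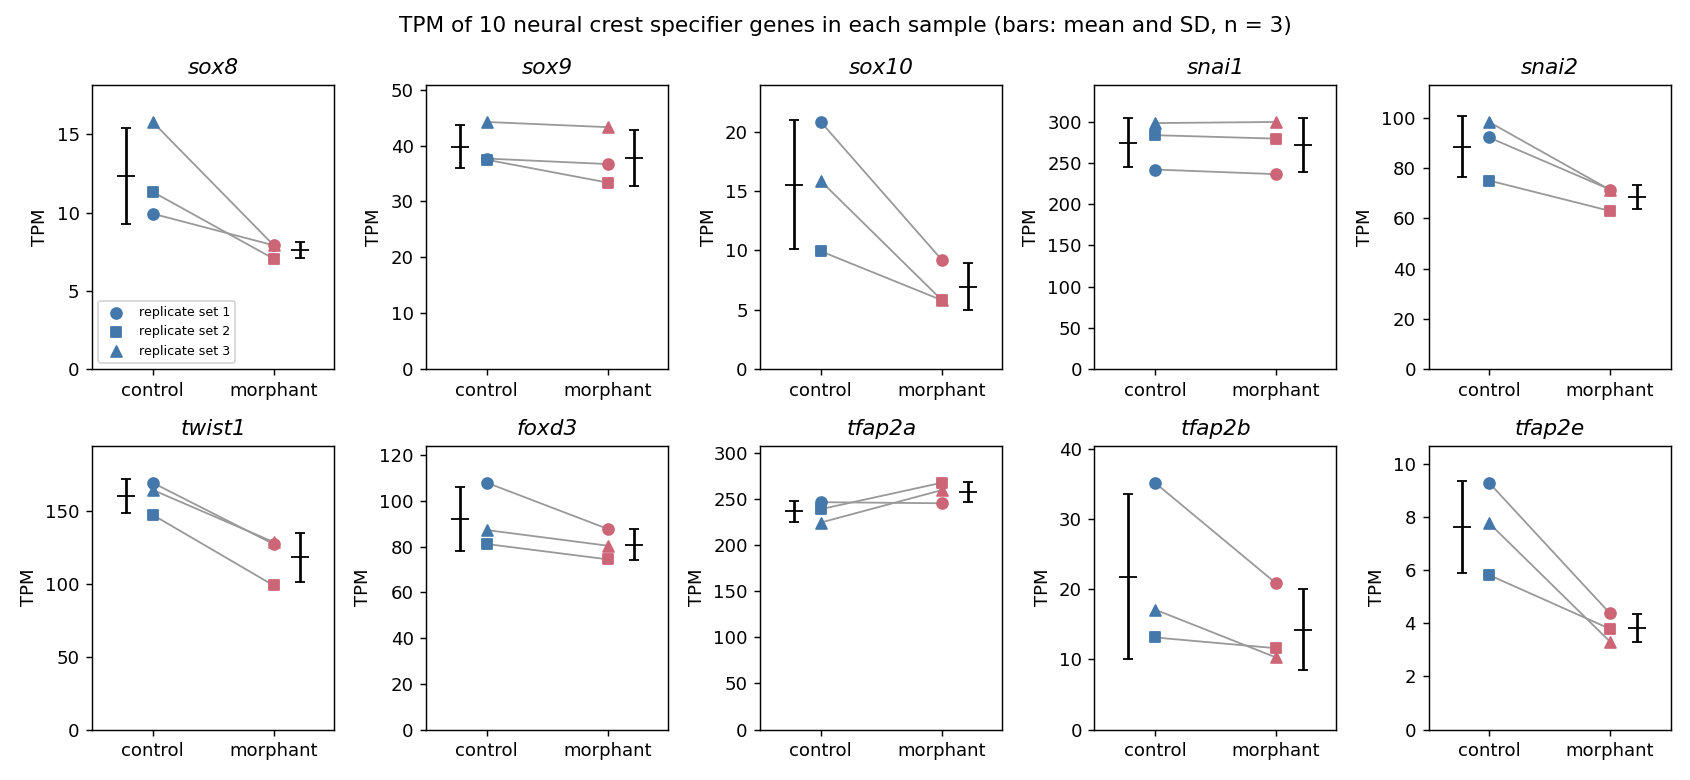
Each panel shows the TPM of 1 gene (vertical axis from 0) in the control (blue) and morphant (red) samples, with lines joining samples of the same replicate set and black bars for the mean and SD of 3 samples. Morphant points lie wholly below control points for *sox8*, *sox10*, *snai2*, *twist1* and *tfap2e*, whereas the groups overlap for the other 5 genes.

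The SoxE genes *sox8*, *sox9* and *sox10* encode related HMG-box factors that act early in crest formation, and *sox10* later directs pigment cells, glia and enteric neurons. Expression of *sox10* was 20.8, 9.93 and 15.8 TPM in the controls of sets 1, 2 and 3 and 9.20, 5.80 and 5.81 TPM in the morphants. The control of set 2 was the lowest control and still lay above the highest morphant. Morphants averaged 44.7% of controls, a log2 fold change of -1.08 ± 0.13 (SE, limma, adjusted p = 0.0211). Only 0.433% of the genes tested ranked at or below *sox10* by log2 fold change.

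In *Xenopus*, *sox8* is the earliest SoxE gene of the crest. Its expression was 9.93, 11.3 and 15.8 TPM in controls and 7.90, 7.04 and 7.91 TPM in morphants. The morphants were close together, while the controls spread over 1.59-fold, so the change differed between sets and was -0.31, -0.65 and -0.95 in sets 1, 2 and 3. Across sets the log2 fold change was -0.64 ± 0.13 (SE, limma, adjusted p = 0.0445).

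The third SoxE gene, *sox9*, is needed for crest formation in *Xenopus* and is known as the master regulator of cartilage. It was at 37.7, 37.5 and 44.2 TPM in controls and 36.7, 33.4 and 43.3 TPM in morphants, and the groups overlapped. Its log2 fold change was -0.078, with a 95% interval from -0.24 to 0.080 (adjusted p = 0.434 from limma). The median scaling turned its sign, to 0.019 (adjusted p = 0.865 from limma).

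*snai1* and *snai2* encode zinc-finger repressors that drive the loss of epithelial character when crest cells delaminate, and *snai1* is also expressed in early mesoderm. Expression of *snai2* was 92.3, 75.1 and 98.5 TPM in controls and 71.5, 63.0 and 71.4 TPM in morphants. Each morphant lay below the lowest control, and morphants averaged 77.4% of controls. The log2 fold change in the fit was -0.36 ± 0.065 (SE, limma, adjusted p = 0.0368).

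By comparison, *snai1* stood at 242.2, 284.0 and 298.7 TPM in controls and 236.6, 279.8 and 300.0 TPM in morphants. Samples of the same set were nearly equal, and set 1 was lowest in both groups. Its estimated log2 fold change was -0.016, with a 95% interval from -0.15 to 0.11 (adjusted p = 0.852 from limma). Its sign turned to 0.080 with median scaling and to 0.0071 with LOC108645507 and LOC100335111 left out.

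*twist1* encodes a bHLH factor that controls migration of the cranial crest and is also made in mesoderm. It was at 169.1, 147.1 and 164.2 TPM in controls and at 127.1, 98.8 and 128.5 TPM in morphants. The groups did not overlap, and set 2 was lowest in both of them. *twist1* changed by -0.41, -0.57 and -0.35 on the log2 scale in sets 1, 2 and 3, or by -0.45 ± 0.065 in the fit (SE, limma, adjusted p = 0.0284).

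The forkhead repressor gene *foxd3*, which keeps premigratory crest cells multipotent, was at 107.9, 81.2 and 87.2 TPM in controls and at 87.8, 74.4 and 80.4 TPM in morphants. Morphants were lower within each set, but the morphant of set 1 lay above the controls of sets 2 and 3. At -0.18 (95% interval -0.34 to -0.021), the log2 fold change had an adjusted p of 0.120 in limma and was not called.

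AP-2 factors act both at the neural plate border and in the specified crest, and *tfap2a* is in addition a major regulator of the epidermis. The smallest of the 3 in expression, *tfap2e*, was at 9.29, 5.82 and 7.77 TPM in controls and 4.37, 3.79 and 3.31 TPM in morphants. Morphants of *tfap2e* were at 50.1% of the control mean, without overlap, and fell by 0.89 ± 0.13 on the log2 scale (SE, limma, adjusted p = 0.0287).

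For *tfap2b*, controls were at 35.1, 13.1 and 17.1 TPM and morphants at 20.8, 11.6 and 10.3 TPM. Set 1 stood far above the other sets in both groups, so the groups overlapped although each morphant was below its own control. The changes were -0.74, -0.17 and -0.71 in sets 1, 2 and 3, and the log2 fold change of -0.54 ± 0.13 (SE) lay just outside the threshold (limma, adjusted p = 0.0549).

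*tfap2a* was the one member with a positive estimate. Its controls were at 246.3, 238.8 and 224.3 TPM and its morphants at 245.2, 267.4 and 259.4 TPM. The morphants of sets 2 and 3 were above all controls, whereas in set 1 the 2 samples were nearly equal. For this gene the log2 fold change was 0.12 (95% interval -0.037 to 0.28, adjusted p = 0.242 from limma).

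**Figure D2:**
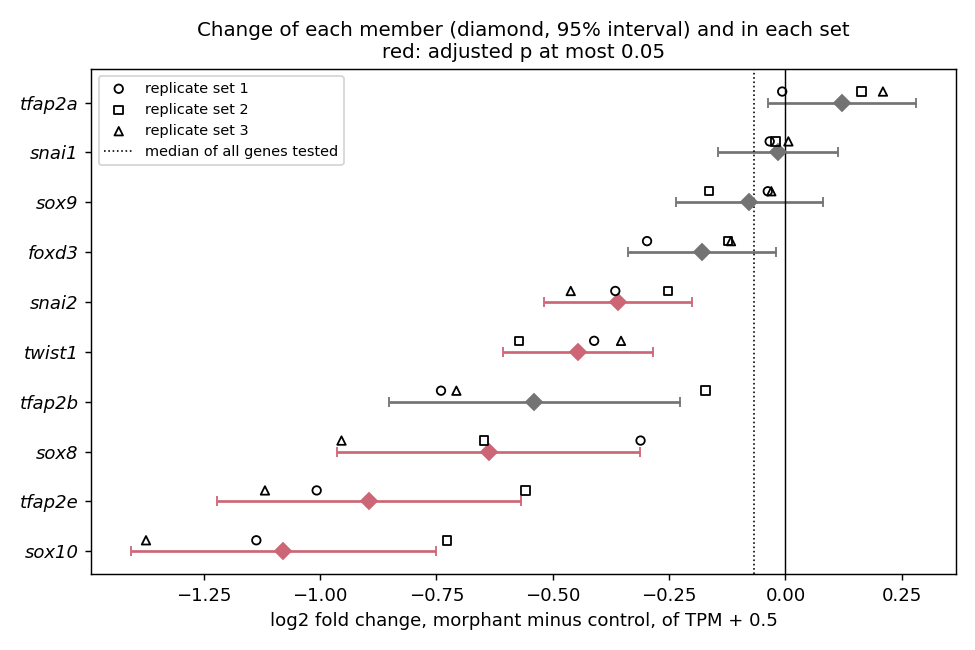
Diamonds give the log2 fold change of each gene (morphant minus control, TPM + 0.5) with its 95% interval from limma, open symbols the change in each replicate set, and the dotted line the median of all genes tested, -0.068. The 5 genes in red had an adjusted p of at most 0.05, and their values run from -1.08 for *sox10* to -0.36 for *snai2*.

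TPM is scaled by transcript length, so the levels of genes can be ordered. By mean TPM in controls the order was *snai1* (274.9), *tfap2a* (236.5), *twist1* (160.1), *foxd3* (92.1), *snai2* (88.6), *sox9* (39.8), *tfap2b* (21.8), *sox10* (15.5), *sox8* (12.3) and *tfap2e* (7.63). The ranges of the 3 control samples overlapped between *snai1* and *tfap2a*, between *foxd3* and *snai2*, between *tfap2b* and *sox10*, and between *sox10* and *sox8*. Within samples, *tfap2b* was above *sox10* in 6 of 6, *foxd3* above *snai2* in 5 of 6 and *snai1* above *tfap2a* in 4 of 6. In morphants the order was the same apart from *sox8*, at 7.62 TPM, which stood above *sox10*, at 6.94 TPM. These 2 genes were in either order among the 6 samples, with *sox10* the higher in 3 of them. Summed over the 10 members, expression was 970.8, 903.8 and 973.6 TPM in controls and 847.1, 845.0 and 910.3 TPM in morphants.

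The balance between related genes was then compared within each sample. Among the SoxE genes, *sox10* made up 30.4, 16.9 and 20.9% of the summed TPM in controls and 17.1, 12.5 and 10.2% in morphants, a difference of -9.46 ± 4.61 percentage points (SD, n = 3 sets). The share of *sox9* was higher in the morphant of each set, by 13.1 ± 4.62 points (SD, n = 3 sets), from 59.1 to 72.1% on average. For *sox8* the difference in share was 0.187, -4.04 and -6.94 points in sets 1, 2 and 3, so set 1 stood apart.

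Within the Snail pair, *snai2* contributed 24.4 ± 3.35% (SD, n = 3) in controls and 20.3 ± 2.58% (SD, n = 3) in morphants, with differences of -4.38, -2.54 and -5.57 points in sets 1, 2 and 3. Shares of AP-2 genes were taken over the 3 members alone. A further AP-2 gene, *tfap2c*, was left out, although at 205.2, 245.7 and 299.9 TPM in controls it was above *tfap2a* in sets 2 and 3. Among the 3 members, *tfap2e* contributed 2.86 ± 0.521% (SD, n = 3) in controls and 1.39 ± 0.207% (SD, n = 3) in morphants. For *tfap2a* the values were 89.1 ± 4.04% (SD, n = 3) and 93.4 ± 2.39% (SD, n = 3). In each of the 3 groups of members, the most abundant member (*sox9*, *snai1* and *tfap2a*) did not itself pass the test. Its share of the summed members was higher in the morphant of every set. A share also rises when the other members fall, so this is not a result separate from the changes above. For AP-2 it holds for the 3 members alone, and shares with *tfap2c* added were not computed. The likeness between the 3 groups was noticed after the values were seen.

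Differences between paralogues in their change were taken within each set. The log2 change of *sox10* was below that of *sox9* by -1.10, -0.56 and -1.34 in sets 1, 2 and 3, with an SD of 0.40 (n = 3 sets). For *snai2* against *snai1* the mean difference was -0.34 ± 0.12 (SD, n = 3 sets), and for *tfap2e* against *tfap2a* it was -1.02 ± 0.30 (SD, n = 3 sets). For *sox10* against *sox8* it was -0.44 ± 0.37 (SD, n = 3 sets), with only -0.079 in set 2. All 7 pairs compared had one sign in the 3 sets, and each gave a two-sided exact sign permutation p of 0.25, the smallest that 3 sets allow, so none of these differences could reach 0.05.

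**Figure D3:**
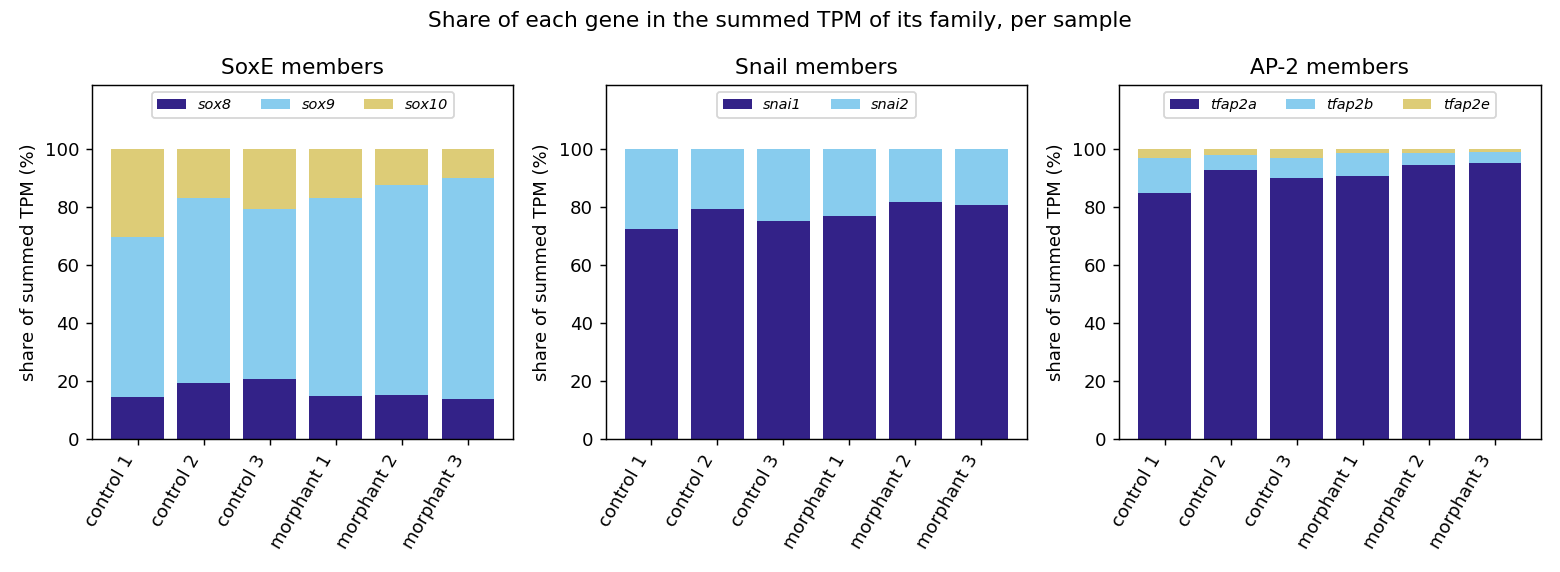
Stacked bars give the share (%) of each gene in the summed TPM of the SoxE, Snail and AP-2 members, 1 bar per sample. The part taken by *sox10* shrinks from 30.4, 16.9 and 20.9% in controls to 17.1, 12.5 and 10.2% in morphants.

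The replicate sets differed among themselves for several members. The set terms of the same fit passed the threshold for *tfap2b*, *snai1*, *sox10*, *foxd3* and *sox9* (limma F test, adjusted p = 0.00862, 0.0239, 0.0247, 0.0445 and 0.0483). These 5 of 10 members compare with 41.8% of all genes tested, so the members are close to the background here. The set differences did not run in one direction. In controls, *tfap2b* was 2.68-fold and *sox10* 2.10-fold higher in the highest than in the lowest set, with set 1 on top for both, whereas *snai1* and *sox8* were lowest in set 1. For *snai1* the SD of the change over sets was 0.021 on the log2 scale, the smallest among the 10 members, and for *sox10* it was 0.33, the largest.

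The calls depended on the pairing of the samples. Without the replicate block, 0 members passed the threshold in limma, and the standard error of *sox10* rose from 0.13 to 0.30 (adjusted p = 0.455). Of all genes, 0.00747% were called in that fit. The same 5 members were lower with an unadjusted p of at most 0.05 without the block, as were 6.39% of all genes tested. When replicate set 3 was left out, 0 members were called, with the estimate for *sox10* at -0.93 (adjusted p = 0.0514 from limma), and 0.472% of all genes were called lower. Leaving out set 2 left *sox10* and *tfap2e* called and added *tfap2b* (-0.72, adjusted p = 0.0394 from limma), with 1.48% of all genes called lower. Leaving out set 1 removed *snai2* alone (adjusted p = 0.0517 from limma), with 5.32% of all genes called lower. Over the 12 alternatives tried, *sox10* and *tfap2e* were each called in 9, *twist1* in 6, *snai2* in 5, *sox8* in 4 and *tfap2b* in 2. With median scaling the calls were *sox10* and *tfap2e*, and with LOC108645507 and LOC100335111 left out *sox8* alone dropped out (adjusted p = 0.0520 from limma). Estimates of these 6 genes were negative under all 12 alternatives.

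**Figure D4:**
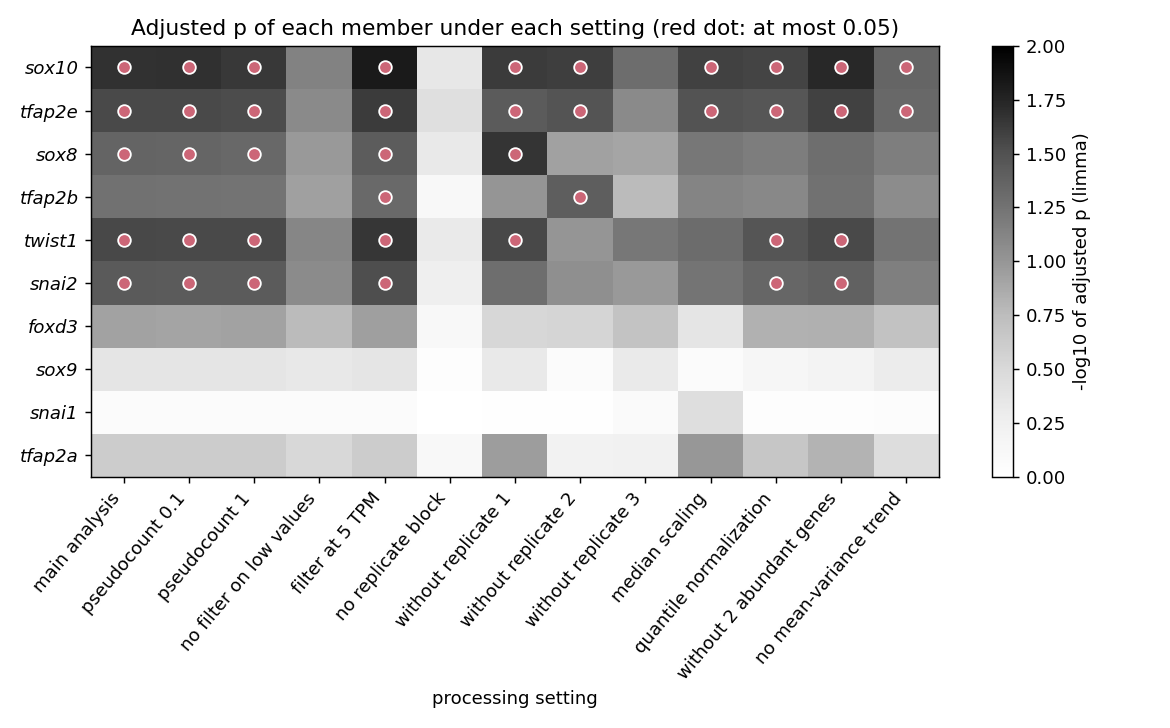
Each cell gives the adjusted p from limma (grey scale, -log10) for 1 gene (rows, ordered by log2 fold change) under 1 processing setting (columns), and red dots mark values of at most 0.05. *sox10* and *tfap2e* carry dots in 9 of the 12 alternatives, and the columns without the low-value filter, without the block and without replicate set 3 hold none.

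To place the specifiers within the crest pathway, 5 lists of other genes were read from the same fit. Together they held 84 tested genes, of which 8 were called lower (9.52%) and 5 higher (5.95%), against 5.87% and 2.62% of all genes tested. With median scaling the counts were 3 lower and 7 higher, beside 381 lower and 533 higher among all genes tested. Without replicate set 3, *col2a1* alone among the 84 was called (adjusted p = 0.0387 from limma), as a lower gene. Upstream of the specifiers, 0 of the 17 tested border factors were called lower and 2 rose (limma, adjusted p of at most 0.05). At an unadjusted p of at most 0.05 in limma the counts were 0 lower and 4 higher. Of all genes tested, 23.4% were lower at that level, and the share that were higher was not computed. Among the border factors that rose was *klf17* (log2 fold change 0.41). The median over the border list was 0.070, and 13 of its 17 estimates were positive. *pax3* (0.00088), *msx1* (0.028) and *msx2* (0.070) were not called. Of the 21 border factors listed, *zic1*, *gbx2* and *lmo4* were not found by symbol and *pax7* was below the filter, so these were not tested. For *klf17*, controls were at 67.9, 86.9 and 95.3 TPM and morphants at 96.0, 116.2 and 119.8 TPM, so the groups did not overlap.

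Of 21 tested genes for inducing signals and their immediate responses, 0 were called lower in limma and 2 rose, with 2 lower and 4 higher at an unadjusted p of at most 0.05 and a list median of 0.0041. *sp5*, a Wnt target, was at 27.2, 29.1 and 34.2 TPM in controls and at 44.2, 39.0 and 61.5 TPM in morphants, without overlap (log2 fold change 0.65, adjusted p = 0.0275 from limma). *kremen2*, which encodes a receptor for Dickkopf proteins that acts in crest induction in *Xenopus*, had a log2 fold change of 0.45 (adjusted p = 0.0350 from limma).

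Among 25 tested co-specifiers and effectors, 5 fell and 1 rose, with a median of -0.17. Of all genes tested, 5.87% were called lower. The genes that fell were *mycn* (log2 fold change -0.50), *sdc4* (-0.63) and *myc* (-0.31). So did *rhob* and *pcdh8*, close to the threshold (adjusted p = 0.0493 and 0.0495 from limma). *myc* maintains crest progenitors and *sdc4*, a syndecan, is needed for directional migration of crest cells in *Xenopus*. The gene that rose was *tcof1*, which acts in ribosome production (log2 fold change 0.33). Expression of *sdc4* varied widely between sets, from 20.7 to 74.5 TPM in controls and from 16.7 to 39.9 TPM in morphants. The count called lower on this list was 1 with median scaling, 1 with quantile normalization and 2 with LOC108645507 and LOC100335111 left out. It was 0 without the filter, the block, the variance trend, replicate set 2 or replicate set 3. It was 3 with a pseudocount of 1, 3 without replicate set 1, 5 with a pseudocount of 0.1 and 6 with the filter at 5 TPM.

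Of 17 tested genes typical of crest derivatives, 2 fell, both of them collagen genes. The list median was -0.30, and 15 of the 17 estimates were negative. *col2a1* was at 183.0, 153.1 and 157.3 TPM in controls and at 113.0, 102.0 and 95.7 TPM in morphants, well apart (log2 fold change -0.66, adjusted p = 0.0148 from limma). *col9a1* had a log2 fold change of -0.94 (adjusted p = 0.0204 from limma). Both encode cartilage collagens, and *col2a1* is also made by the notochord and somites of the neurula. A further 9 genes of this list were below 1 TPM in both groups, among them the pigment cell genes *mitf* and *tyr*.

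Other genes of the same families differed widely in level. Of 9 relatives, *snai3*, *twist2*, *tfap2d* and *foxd4l1.2* did not reach 1 TPM in either group. Among the 5 tested, *foxd2* fell, at 20.8, 19.1 and 21.3 TPM in controls and 16.2, 14.4 and 17.7 TPM in morphants (log2 fold change -0.34, adjusted p = 0.0452 from limma). The related gene *foxd1* had an estimate of -0.27 that did not pass (adjusted p = 0.0651 from limma). The most abundant of the 5, *tfap2c*, was at 205.2, 245.7 and 299.9 TPM in controls and 227.8, 258.8 and 291.1 TPM in morphants. It was not called (log2 fold change 0.061, adjusted p = 0.521 from limma), nor were *sox13* (-0.14) and *foxd4l1.1* (0.20).

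**Figure D5:**
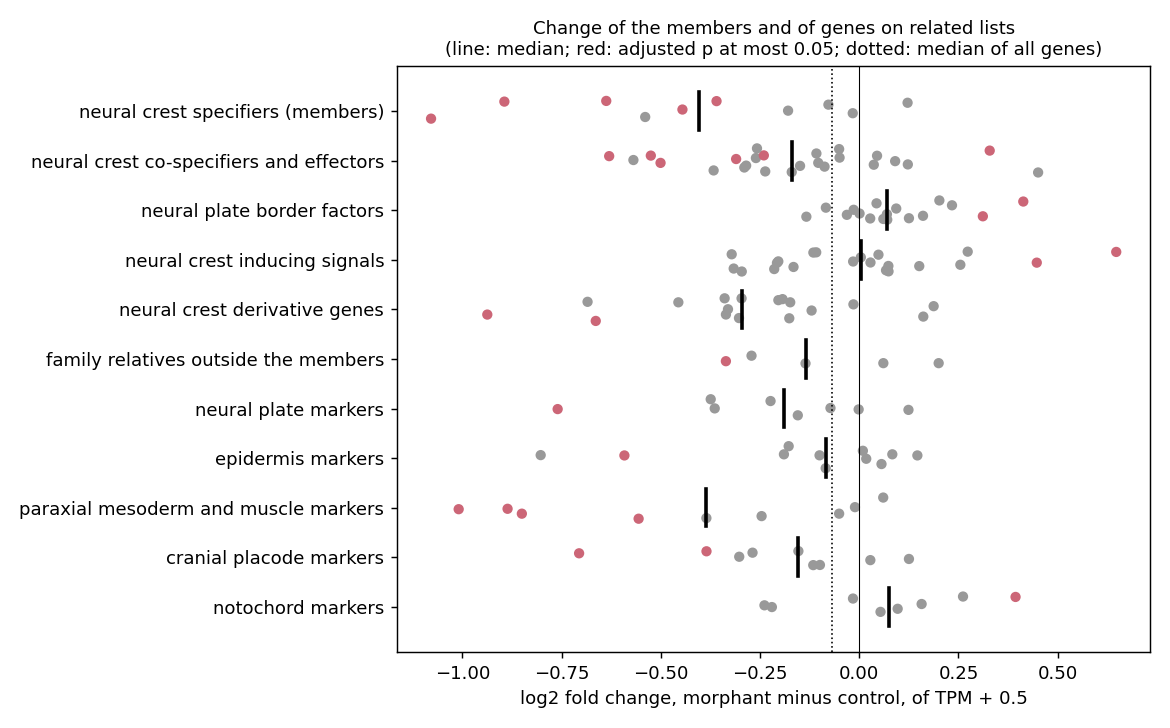
Points give the log2 fold change (morphant minus control, TPM + 0.5) of each tested gene on a list, black lines the list median, and red points an adjusted p of at most 0.05 in limma. The 10 members have a median of -0.40, against -0.068 for all genes tested (dotted line). Medians are 0.070 for border factors, 0.0041 for inducing signals, -0.14 for relatives, -0.17 for co-specifiers and effectors and -0.30 for derivative genes. Among tissue marker lists they run from -0.39 for paraxial mesoderm and muscle to 0.075 for notochord.

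Markers of other tissues were read beside the members, since whole embryos hold them all. The counts below stand beside 5.87% of all genes tested called lower and 2.62% called higher. Of 9 tested paraxial mesoderm and muscle markers, 4 fell and 0 rose (median log2 fold change -0.39), and their summed level was 4882 to 6475 TPM in controls and 3687 to 5056 TPM in morphants. The genes that fell were *tnnc1* (log2 fold change -1.01, adjusted p = 0.0133 from limma), *tnni1*, *mylpf* and *myf6*, which encode contractile proteins and, for *myf6*, a myogenic factor. The most abundant gene of the list, *actc1* (-0.39, adjusted p = 0.0532 from limma), and *mef2d* (-0.25) were not called. Nor were *meox2* (-0.051) and the myogenic factor genes *myod1* (-0.011, adjusted p = 0.935 from limma) and *myf5* (0.061, adjusted p = 0.520 from limma). Without replicate set 3, *tnnc1* and *tnni1* stayed past the threshold. Of 8 neural plate markers, 1 fell, *sox1* (-0.76), while *ncam1* (-0.36) had an adjusted p of 0.0553 in limma. Also not called were *nes* (-0.37), *sox3* (-0.22), *hoxb9* (-0.15), *otx2* (-0.072), *pax6* (-0.0014) and *sox2* (0.12). The neural plate list summed to 809.3 to 998.9 TPM in controls and 737.1 to 943.1 TPM in morphants.

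Of 9 placode markers, 2 fell, among them *pax2* (-0.71), and the list summed to 409.6 to 450.4 TPM in controls and 405.2 to 424.4 TPM in morphants. Of 11 epidermal markers, 1 fell, *krt12* (-0.59), and *itln1* (-0.80) lay at an adjusted p of 0.0503 in limma. Of the epidermal estimates, 6 were negative and 5 positive. With median scaling 0 epidermal markers were called (for *krt12*, adjusted p = 0.0515 from limma), and the list median was 0.012. The epidermal sum was 10058 to 11023 TPM in controls and 9059 to 10574 TPM in morphants. Of 8 notochord markers, 1 rose, *t* (0.39), and 0 were called lower in limma, with 2 lower at an unadjusted p of at most 0.05. On the same list, *tbxt* (0.097, adjusted p = 0.444 from limma) was not called. The notochord and floor plate gene *foxa2* had an estimate of -0.22 (adjusted p = 0.0819 from limma), and the list summed to 348.1 to 442.9 TPM in controls and 380.7 to 446.1 TPM in morphants. Without replicate set 3, 0 neural plate, placode, epidermal or notochord markers were called in limma. Markers of each tissue were present in both groups, and the part of these tissues in the values of the members was not tested.

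With *sox10* as the reference, 7885 named genes with a mean of at least 5 TPM were ranked by how closely their profile over the 6 samples followed it. The closest were *sephs1* (Pearson's r = 0.994), *ldlrad3* (0.993), *lrrn1* (0.991), *nhlh1* (0.989) and *mns1* (0.987). The samples share sets and groups, and 85 of the 7885 genes had an r of at least 0.95, so the order among them carries little weight. Since the 5 genes were picked for following *sox10* in these samples, their lower values in morphants were fixed by the choice, and their log2 fold changes, from -0.64 for *nhlh1* to -0.22 for *sephs1*, are given as a description.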

How the data were processed

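RNA from whole embryos was poly(A)-selected and sequenced as Illumina short reads. The authors trimmed the reads (cutadapt is listed in the submitters' processing notes), quantified them with Salmon on the reference transcriptome of *X. tropicalis* and summed transcripts within genes. The deposited values are TPM per gene, beside the authors' group means, which were not used. Depth cannot be recovered from TPM, and the paper gives an approximate range of reads per sample but no value for each sample. The species follows the labels of the samples and the paper. How many embryos made up a sample is not given in the sources used here.

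Sleuth, used in the paper, needs input that a TPM table does not carry. Genes averaging 1 TPM or more in controls or in morphants, 13382 in number, were tested with limma 3.58.1 (R 4.3.3). Values were log2(TPM + 0.5), a trend of variance with mean expression was fitted, and replicate number entered as a block. The fit leaves 2 residual degrees of freedom per gene, and limma draws each gene's variance toward the trend. Standard errors therefore borrow from other genes. The p-values were adjusted by Benjamini-Hochberg over all genes tested. A fold change on this scale understates that of low genes. Differences between replicate sets were tested with the F test of the same fit. Pairing rests on the shared numbers and on the sibling embryos described in the paper. Deviations of same-numbered samples from their group means correlated at 0.72, 0.61 and 0.73 across genes. Over the members alone the values were 0.91, 0.56 and 0.57. There the morphant of set 3 followed the control of set 2 more closely than its own, at 0.88. Whether samples of a group came from separate clutches is not stated, so p-values apply to these replicate sets only. With the block, they weigh the change against its spread over the sets and the variance borrowed from other genes. Differences in level between replicate sets enter the error only in the fit without the block.

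The members and lists were chosen with earlier results of these data known. Genes were named by rule: all members, *src*, up to 4 called genes of each list by smallest p (the 2 with the smallest p where fewer than 2 were called), and the 5 profiles most like *sox10*. Some genes that this rule selects are not reported here. *rhob*, *pcdh8*, *tfap2c*, *sox13*, *foxd4l1.1*, *pax3*, *msx1* and *msx2* were added after their values were seen. So were genes named as below the filter and the uncalled tissue markers outside that rule. Alternatives were pseudocounts of 0.1 and 1, no filter or one at 5 TPM, no block, leaving out each replicate set, scaling to the median, quantile normalization, leaving out 2 abundant genes, and no variance trend. No sequence or coordinate was used here.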

Additional observations from a re-analysis of the deposited data

How the results depend on the processing

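Members called lower numbered 5 in the main analysis. The count was 0 without the filter on low values, 0 without the replicate block, 0 to 4 with a replicate set left out, 2 with median scaling and 2 without the mean-variance trend, and within 1.5 times the main count under the other alternatives. Of all genes tested, 381 were called lower with median scaling, 368 without the trend and 402 with quantile normalization. That number was 634 with the 2 abundant genes left out, 805 and 736 with pseudocounts of 0.1 and 1, and 689 of 9335 with the filter at 5 TPM. Members called higher numbered 0 throughout. The block was therefore needed for each call. The unfiltered fit tested 21387 genes, called 0 of them in either direction, and left each member's estimate as it was. Members differing between replicate sets numbered 5, then 2 without the filter, 2 without the trend and 2 to 3 with a set left out. On the 5 crest lists, 8 genes were called lower. That count was 0 without the filter and without the block, 3 with median scaling, 3 with quantile normalization, 4 with LOC108645507 and LOC100335111 left out, 2 without the trend and 1 to 5 with a set left out. The 5 list genes called higher became 7 with median scaling, 7 with quantile normalization and 6 with LOC108645507 and LOC100335111 left out. In these 3 settings more list genes were called higher than lower. Among all genes tested, 533 were higher and 381 lower with median scaling, and 384 higher and 402 lower with quantile normalization. With the 2 abundant genes left out, 420 were higher and 634 lower. With the filter at 5 TPM, 9 were called lower and 7 higher. The count called higher was 0 without the filter, 0 without the block, 0 without the trend and 0 to 5 with a set left out.

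Signs of estimates turned for *sox9* with median scaling (0.019) and for *snai1* with median scaling (0.080) and with the 2 abundant genes left out (0.0071). Median scaling moves all genes of a sample by the same amount, and the median over all genes tested went from -0.068 to 0.029. With the 2 abundant genes left out, the other genes of each sample were rescaled to a common total. Neither *sox9* nor *snai1* was called under any alternative. The median change of the members stayed negative throughout. TPM gives no depth, so the precision of low members such as *tfap2e* rests on the 3 sets and on the variance that limma borrows from other genes.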
